A study of Mus musculus with 10 samples.

Results

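NFATC2 binding to chromatin was compared between 2 CUT&Tag libraries of primary mouse cardiac fibroblasts, one from cells given TGF-β (TGF) and one from cells transfected with siRNA against hexokinase 1 before TGF-β was added (siHK1). CUT&Tag uses an antibody to direct a transposase to chromatin, so that reads pile up where the antibody's target sits. Both libraries belong to a series of 10. The labels give the tissue as heart and the cell type as fibroblast, and name no strain, age, number of animals or dose. They do not say whether the TGF cells received a control siRNA. Each condition is a single library, so the values carry no replicate error, none was tested, and each statement compares 2 libraries. No RNA or protein was measured in these libraries, so the depletion of HK1 itself was not checked here.

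Genes were taken from the NFATC2 table by summing the reads of all regions assigned to a gene symbol in each library and keeping genes with 20 or more reads over both. This kept 7482 of 17378 genes, from 68767 regions of which 57 carried no symbol. The regions covered 20.2 Mb and held 575706 reads in TGF (28.6 reads per kb) and 354599 in siHK1 (17.6 reads per kb). These totals are reads in listed regions, not library depths. All ratios are log2 of siHK1 over TGF after the totals were made equal, with 0.5 added to each raw count, so 0 means an equal share of each library and not an equal number of reads. Brackets hold the ratio, then its exact 95% Clopper-Pearson interval from the split of reads between both libraries. These intervals cover counting error only, since copies made by PCR are not independent molecules. A loss or gain common to all regions cannot be seen after this scaling.

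NFAT proteins are held in the cytoplasm by phosphorylation. A rise in cell calcium activates calcineurin, a phosphatase made of a catalytic and a regulatory subunit, which strips the phosphates and lets NFAT enter the nucleus. There NFAT binds a short core, GGAAA, often beside AP-1 (TGANTCA), and in heart muscle and fibroblasts the pathway is known for its part in growth and in the switch to contractile, matrix-producing myofibroblasts. HK1 carries out the first step of glycolysis, and lactate from glycolysis is the source of histone lactylation. The comparison addresses whether NFATC2 sits on different genes when HK1 is targeted.

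The sequences below are the central 200 bases of regions of genes described below, with the forward strand of GRCm38 written 5′ to 3′. Capitals mark GGAAA, its reverse complement TTTCC, and TGANTCA. Both regions of Hk1 are shown because they held most of its reads, and those of Birc5 and Zdhhc12 because they are promoter regions of genes past 2-fold. The region assigned to Tnfrsf1a shows a run of AC repeats, and that of Acta2 lies at the start of the myofibroblast actin gene.
Hk1 promoter, chr10:62340287-62340486: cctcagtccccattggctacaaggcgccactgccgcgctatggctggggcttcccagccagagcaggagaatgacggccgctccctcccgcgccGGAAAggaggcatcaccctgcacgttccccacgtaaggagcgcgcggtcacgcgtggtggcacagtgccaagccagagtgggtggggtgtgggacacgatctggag
Hk1 intron, chr10:62300260-62300459: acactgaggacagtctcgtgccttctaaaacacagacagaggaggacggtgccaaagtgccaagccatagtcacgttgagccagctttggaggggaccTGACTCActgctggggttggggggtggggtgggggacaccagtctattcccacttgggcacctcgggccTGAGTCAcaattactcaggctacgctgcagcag
Birc5 promoter, chr11:117849080-117849279: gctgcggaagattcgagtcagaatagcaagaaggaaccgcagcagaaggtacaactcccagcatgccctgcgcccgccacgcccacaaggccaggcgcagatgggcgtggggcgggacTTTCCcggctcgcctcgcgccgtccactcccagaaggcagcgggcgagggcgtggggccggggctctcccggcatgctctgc
Zdhhc12 promoter, chr2:30093716-30093915: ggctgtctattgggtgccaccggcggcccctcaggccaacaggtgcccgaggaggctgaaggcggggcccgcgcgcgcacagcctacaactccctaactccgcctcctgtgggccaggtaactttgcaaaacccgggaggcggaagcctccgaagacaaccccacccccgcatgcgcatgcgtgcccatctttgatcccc
Tnfrsf1a region, chr6:125369379-125369578: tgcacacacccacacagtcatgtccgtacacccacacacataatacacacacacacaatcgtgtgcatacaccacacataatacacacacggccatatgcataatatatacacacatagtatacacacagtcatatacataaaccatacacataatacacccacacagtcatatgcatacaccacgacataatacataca
Acta2 promoter, chr19:34255641-34255840: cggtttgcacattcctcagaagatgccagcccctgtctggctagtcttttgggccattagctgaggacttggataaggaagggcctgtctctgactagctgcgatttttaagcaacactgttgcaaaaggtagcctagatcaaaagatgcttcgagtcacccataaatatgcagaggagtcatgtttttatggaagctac

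Most genes held about the same share of NFATC2 reads in both libraries. The median log2 ratio of the 7482 genes was 0.079, with quartiles of -0.38 and 0.52. In siHK1, 487 genes (6.51%) were lower by 2-fold or more and 651 genes (8.7%) were higher. All regions of 173 of the 487 lower genes were listed through a peak call in TGF only, and all regions of 229 of the 651 higher genes through one in siHK1 only, against 458 and 372 of all 7482 genes. Such a call itself favours reads of that library. Of the list members named below, this holds for Nfatc3, Ppp3cb, Csnk1a1, Acp5, Cnn3, Col3a1, Postn, Bmp1, Loxl2 and Il6 on the siHK1 side and for Gsk3a, Gsk3b and Snai1 on the TGF side. It also holds on the TGF side for Slc40a1, which was under the minimum. Without scaling the 2-fold counts were 2130 lower and 141 higher, since the TGF library held 1.62 times as many reads. The counting interval lay below 0 for 541 genes (7.23%) and above 0 for 767 (10.3%). A typical gene rested on few reads, with a median of 40 over both libraries in 5 regions. At the edge of the minimum, the 255 genes with 20 reads had a median ratio of 0.14 and the 295 genes with 19 reads, which were left out, had 0.26.

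Large ratios lay among genes with few reads. Of the 4610 genes with 20 to 49 reads, 404 were 2-fold lower and 557 were 2-fold higher. Of the 1991 genes with 50 to 99 reads these numbers were 74 and 87, and of the 654 genes with at least 100 but under 200 reads they were 9 and 7. None of the 227 genes with 200 or more reads passed 2-fold in either direction, and their ratios ran from -0.96 to 0.97 with a median of -0.12.

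**Figure D1:**
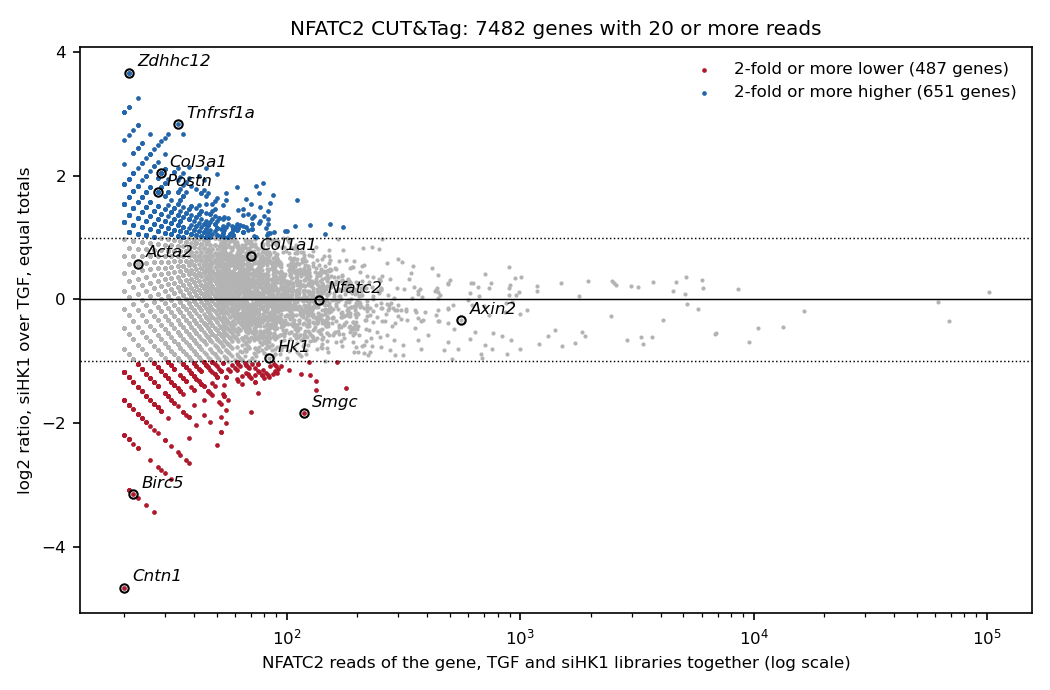
Log2 ratio of NFATC2 reads (siHK1 over TGF, equal totals) against the reads of the gene in both libraries (log scale), 1 point per gene, with dotted lines at 2-fold. The 487 lower and 651 higher genes lie at the left, and the 227 genes with 200 or more reads stay between the dotted lines.

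Hk1, the gene targeted by the siRNA, held 64 NFATC2 reads in TGF and 20 in siHK1, a log2 ratio of -0.95 (-1.78 to -0.24). The reads lay in 6 regions, 4 listed through a peak call in TGF only and 2 through one in siHK1 only. Such a call itself favours reads of that library. The 4 promoter regions differed most, and together they held 37 reads in TGF and 5 in siHK1 (-2.07, -3.89 to -0.84). Those called in TGF only held 21 and 3, 7 and 1, and 6 and 0 of these reads. The promoter region at chr10:62340230-62340545, which overlaps Hk1 and the antisense gene Hk1os, had 21 reads in TGF and 3 in siHK1. The 2 intron regions, called in different libraries, held 27 and 15 reads, a ratio of -0.13 (-1.16 to 0.81). The intron region at chr10:62300111-62300610 had 25 reads in TGF against 10 in siHK1, and its centre carries TGANTCA at 2 places and no GGAAA. An NFATC2 read at Hk1 measures the factor on the gene and says nothing of its transcript.

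Of the NFAT and calcineurin pathway, 23 of 39 listed genes passed the minimum, and 38 were in the table. Their median ratio was -0.01, beside 0.079 for all genes kept, with 1 gene 2-fold lower and 3 higher, where 6.51% and 8.7% of all genes kept were. Among the factors, Nfatc2 itself had 85 reads in TGF and 52 in siHK1, a ratio of 0.00 (-0.54 to 0.50) over 14 regions. Nfatc1, a family member best known in heart valves and bone, had 39 reads in each library (0.70, 0.02 to 1.38). Nfatc3 had 9 and 15 reads (1.41, 0.15 to 2.81), in 3 regions all called in siHK1 only.

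The calcineurin subunits that passed were both catalytic. Ppp3cb had 6 TGF and 19 siHK1 reads, a ratio of 2.28 (0.98 to 3.98), in 2 regions both listed through a peak call in siHK1 only. Ppp3ca had 22 and 24 reads (0.82, -0.07 to 1.73) in 15 regions. The 5 regulators and anchors of calcineurin that passed had a median of -0.14, and Rcan2 stood above the median of all genes with 23 and 18 reads (a ratio of 0.35). Rcan1, a calcineurin inhibitor that NFAT itself induces, had 21 and 9 reads (-0.48, -1.83 to 0.66), and Cabin1, another inhibitor, had 45 and 25 (-0.14, -0.92 to 0.59). Of the 4 kinases that send NFAT back to the cytoplasm, Dyrk1a had 87 and 37 reads (-0.52, -1.13 to 0.04), Gsk3a had 17 and 6 (-0.73, -2.43 to 0.61) and Gsk3b had 23 and 14 (a ratio of 0.00). Csnk1a1, a casein kinase, went the other way with 8 and 13 reads (1.37, 0.02 to 2.88).

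Of the genes of calcium entry, the plasma membrane channels Trpc1 and Trpc6 had 16 and 7 reads (-0.44, -2.02 to 0.87) and 19 and 14 reads (0.27, -0.85 to 1.33). The calcium sensors Stim1 and Stim2 had ratios of -0.01 and 0.43, with intervals that span 0. Among known NFAT target genes, 9 of 26 passed, with a median of 0.23 and 1 gene past 2-fold (8.7% of all genes kept were 2-fold higher and 6.51% lower). That gene was Acp5, the acid phosphatase of osteoclasts, with 7 and 19 reads (2.08, 0.83 to 3.63), and its 3 regions were also called in siHK1 only.

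The contractile genes, the collagens and the matrix glycoproteins had medians above that of all genes (0.079). The median of the enzymes that link collagen, 0.05, was close to it, and stayed below the all-gene median in 11 of 16 other settings. The 21 contractile and stress-fibre genes that passed had a median of 0.37, with 3 genes 2-fold higher and none lower. Their median was -0.32 without scaling, which lowers the ratio of every gene by 0.70. Of all genes kept, 8.7% were 2-fold higher and 6.51% lower. Cald1, which encodes caldesmon, had 31 TGF and 49 siHK1 reads (1.35, 0.68 to 2.06), and 5 and 16 of these lay in its promoter regions. Cnn3, a calponin, had 8 and 17 reads (1.74, 0.50 to 3.21), and Rock2, a kinase that raises myosin activity, had 9 and 15 (1.41, 0.15 to 2.81). Acta2, which encodes the smooth muscle actin that marks myofibroblasts, had 12 and 11 reads (0.58, -0.75 to 1.88). Its 2 promoter regions held 6 and 4 reads together (0.17, -2.15 to 2.19), with 6 and 1 at chr19:34255513-34255970 and 0 and 3 at chr19:34251529-34251705. The reads of this gene were too few to place it on either side of 0.

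Of the 11 fibrillar collagens, all passed, with a median of 0.35, 3 genes 2-fold higher and none lower, beside 8.7% and 6.51% of all genes kept. Their median was -0.35 without scaling, which lowers every ratio alike. Col1a1, a chain of type I collagen, had 35 reads in each library (0.70, -0.02 to 1.42). Its partner chain Col1a2 had 30 and 22 (0.26, -0.61 to 1.09). Col3a1, the chain of type III collagen, had 8 and 21 reads (2.04, 0.86 to 3.48) in 7 regions. All 7 were listed through a peak call in siHK1 only, which itself favours siHK1 reads. Col5a2 had 19 and 30 reads (1.34, 0.48 to 2.27) and Col11a2 had 9 and 17 (1.58, 0.37 to 2.96). The 2 members below 0 were Col2a1, the collagen of cartilage, with 25 and 9 reads (-0.73, -2.06 to 0.37) and Col24a1 with 49 and 23 (-0.38, -1.17 to 0.35).

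The 26 matrix glycoproteins and proteoglycans had the highest median of the lists with more than 1 gene, 0.45. Of these 26, 1 gene was 2-fold higher and 1 lower, beside 8.7% and 6.51% of all genes kept. Their median was -0.25 without scaling, which lowers every ratio alike. Postn, which encodes periostin, had 9 reads in TGF and 19 in siHK1 (1.74, 0.56 to 3.10). Its 7 regions lay outside promoters, all were listed through a peak call in siHK1 only, and no region had more than 4 reads in either library. Fbln2, which encodes fibulin 2, rested on more reads, with 116 and 140 (0.97, 0.61 to 1.34). Fbn1, the main protein of microfibrils, had 31 and 37 reads (0.95, 0.23 to 1.69), and Efemp1 had 18 and 5 (-1.05, -2.93 to 0.33).

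Among enzymes that mature and link collagen, 12 passed, with a median of 0.05, 3 genes 2-fold higher and 1 lower. In this list and that of the metalloproteinases, the share over all genes kept to set beside such counts is 8.7% higher and 6.51% lower. Bmp1, the proteinase that cuts the C-terminal end off procollagen, had 3 reads in TGF and 18 in siHK1 (3.10, 1.51 to 5.69) over 4 regions. Loxl2, a lysyl oxidase, had 8 and 20 (1.97, 0.78 to 3.41), and Tgm2, a transglutaminase, had 20 and 5 (-1.20, -3.07 to 0.16). Lox was below the minimum, with 8 and 3 reads. The 24 metalloproteinases and inhibitors had a median of 0.27, with 3 higher, among them the inhibitor Timp3 with 23 and 39 reads (1.45, 0.68 to 2.27), and 1 lower, Adamts17 with 27 and 6 (-1.38, -3.04 to -0.16).

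Transcription factors of cardiac fibroblasts had a median of 0.36 over 27 genes, 4 of them 2-fold higher and none lower (8.7% and 6.51% of all genes kept). Their median was -0.33 without scaling, which lowers every ratio alike. Tcf21, a marker of resident cardiac fibroblasts, had 21 reads in TGF and 32 in siHK1 (1.30, 0.47 to 2.17). Foxp1 had 110 and 122 reads (0.85, 0.46 to 1.23), and Runx1 had 101 and 111 (0.83, 0.43 to 1.24). Twist1, known for its part in the mesenchymal state, had 7 and 13 (1.55, 0.16 to 3.16). Of the 27 ratios, 8 were below 0. The lowest was that of Snai1, with 21 and 9 reads (-0.48, -1.83 to 0.66), and among those with more reads were Egr1, an early response factor, with 72 and 37 reads (-0.25, -0.87 to 0.33), and Tbx5, a factor of heart development, with 96 and 50 (-0.24, -0.77 to 0.27).

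The TGF-β pathway stood near the median of all genes. Its 18 ligands, receptors and SMADs had a median of 0.13, with 1 gene past 2-fold (8.7% of all genes kept were 2-fold higher and 6.51% lower). That gene was Tgfbr1, the signalling receptor, with 14 reads in TGF and 20 in siHK1 (1.20, 0.16 to 2.31). Smad3 had 115 and 58 reads (-0.28, -0.77 to 0.18), and Smad5 had 59 and 22 (-0.70, -1.50 to 0.00). The 11 feedback inhibitors had a median of -0.03 and none passed 2-fold, with Smad6 at 120 and 56 reads (-0.39, -0.88 to 0.07) and Smad7 at 42 and 27 (0.07, -0.69 to 0.79).

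Among metabolic genes the 16 of glycolysis and lactate handling had a median of -0.18, with 8 ratios below 0 and 8 above. Of the 16, 1 gene was 2-fold lower and 1 higher, beside 6.51% and 8.7% of all genes kept. The 9 glycolysis genes other than Hk1 had a median of 0.05. Of the 16, 3 intervals lay below 0 and none above, beside 7.23% and 10.3% of all genes kept. These 3 were Hk1, the glucose transporter Slc2a1 with 32 and 8 reads (-1.24, -2.63 to -0.15) and the lactate transporter Slc16a7 with 111 and 34 (-0.99, -1.61 to -0.44). The reads of Slc16a7 were spread over 23 regions. Pdk3, a kinase that holds back pyruvate dehydrogenase, was the gene past 2-fold higher with 10 and 13 reads (1.06, -0.23 to 2.43). Gapdh and Ldha, which act late in the pathway, had 36 and 16 reads (-0.45, -1.42 to 0.42) and 19 and 12 reads (0.06, -1.14 to 1.15). The 9 genes of iron handling and ferroptosis had the lowest median, -0.27, with no interval apart from 0. Slc40a1, the iron exporter, was 1 read under the minimum with 17 reads in TGF and 2 in siHK1 (-2.11, -5.55 to -0.31). Its 2 regions were both listed through a peak call in TGF only, which itself favours TGF reads.

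Long genes of neuronal adhesion and guidance, listed as genes that fibroblasts are not known for, had a median of -0.13 over 40 genes. Of these 40, 26 ratios were below 0, and 1 gene was 2-fold lower and 1 higher. In this list 10 intervals lay below 0 and 1 above, where 7.23% and 10.3% of all genes kept had such intervals. These shares are not a like comparison, since intervals narrow with more reads. The 40 genes held 3936 TGF and 2110 siHK1 reads, while the median gene kept had 40 reads. Of the 227 genes with 200 or more reads, 75 intervals lay below 0 and 42 above, and their median ratio was -0.12. No comparison at matched reads was made. Cdh10, a cadherin, had 45 and 7 reads (-1.90, -3.38 to -0.83), Cntn4 had 157 and 58 (-0.73, -1.20 to -0.29) and Csmd1 had 193 and 88 (-0.43, -0.81 to -0.06). The same list had a median of -0.78 in the SMAD3 table (39 genes kept), 0.08 in the JUN table (39) and -0.18 in the H3K9lc table (40).

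For the other lists, medians were 0.33 for the Wnt pathway (28 genes, 1 lower and 1 higher), 0.28 for cytokines and chemokines (9 genes, 1 lower and 3 higher), 0.23 for non-fibrillar collagens (22 genes) and 0.21 for PDGF and FGF signalling (17 genes). Of all genes kept, 6.51% were 2-fold lower and 8.7% higher. Medians were 0.17 for the AP-1 family (12 genes), 0.16 for interferon genes (4 genes), 0.14 for the Hippo pathway (14 genes) and 0.12 for integrins and laminins (21 genes). Histone acylation enzymes were at -0.00 (10 genes), the cell cycle at -0.07 (13 genes) and plasminogen activation at 0.70 (1 gene, Plg). Il6, an inflammatory cytokine, had 4 reads in TGF and 16 in siHK1 (2.57, 1.07 to 4.74), in 7 regions all called in siHK1 only, and Cxcl12, a chemokine of stromal cells, had 19 and 36 (1.60, 0.78 to 2.51). Ccl2, which attracts monocytes, had 25 and 7 (-1.07, -2.59 to 0.11). Stk3, a kinase of the Hippo pathway, had 73 and 21 (-1.07, -1.87 to -0.38).

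**Figure D2:**
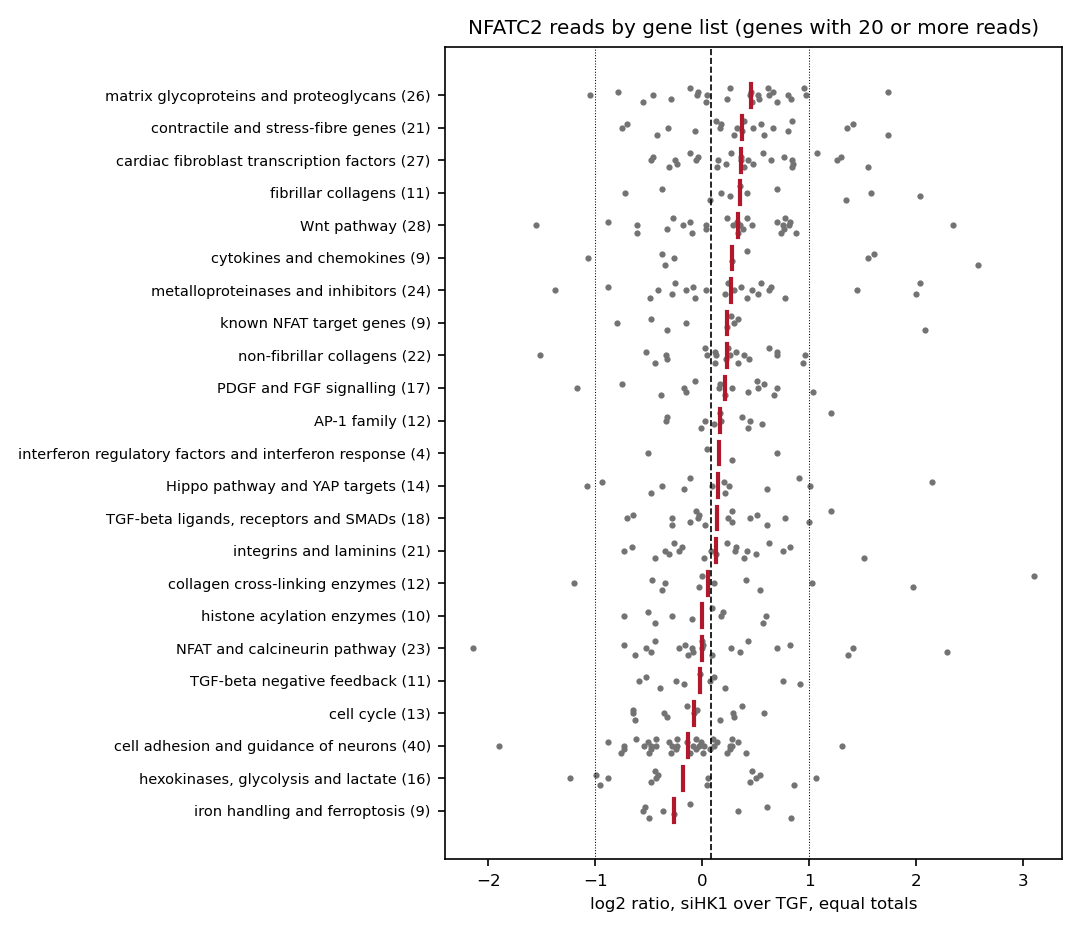
Log2 ratio of NFATC2 reads (siHK1 over TGF, equal totals) for the genes of each list that had 20 or more reads (number in brackets), 1 grey point per gene, red bars for list medians, a dashed line at the median of all genes kept (0.079) and dotted lines at 2-fold. Medians of lists with more than 1 gene lie between -0.27 and 0.45.

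The genes with intervals furthest below 0 held nearly all of their reads in TGF, and 39 of their 43 regions were listed through a peak call in TGF only, which itself favours TGF reads. Cntn1, a neural adhesion protein, had 20 reads in TGF and 0 in siHK1. Against a set floor of 3 reads in siHK1, which is not a bound, it was 4.11-fold lower. Its counting interval ended at a log2 ratio of -1.60. Birc5, which encodes survivin, an inhibitor of cell death, had 21 reads in TGF and 1 in siHK1 (-3.14, -9.06 to -1.06). Of these, 13 and 1 were in the promoter region at chr11:117848901-117849459, and 8 and 0 at its 3′ UTR. Meaf6, a subunit of histone acetyltransferase complexes, had 22 and 1 (-3.21, -9.13 to -1.13), with 10 and 0 at its promoter. Sfmbt2, a Polycomb group protein, had 35 and 3 (-2.64, -5.19 to -1.18), most of them 88 kb from its start.

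Some of these genes took their name from distant regions, since the files name a region for a gene whose start lies near it, which need not be the gene it lies in. The 4 regions given to Mir551b (27 and 2 reads) all lie in introns of Egfem1. Of the 5 regions given to Smgc (101 and 17 reads), 4 lie in the Muc19 locus. Nrarp, a feedback inhibitor of Notch signalling, had 32 and 3 reads (-2.52, -5.07 to -1.04), none within 19 kb of its start. Sirpb1a, a receptor of myeloid cells, had 26 and 1, and Mir344i had 28 and 2.

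The 11 genes furthest above 0 had 41 reads in TGF and 227 in siHK1, over 47 regions of which 46 carried a peak call in siHK1 only, which favours siHK1 reads in the same way. Zdhhc12, a palmitoyltransferase, had 2 and 19 reads (3.66, 1.90 to 7.09), all of them in the single promoter region at chr2:30093645-30093987. Bicra, a subunit of a SWI/SNF remodelling complex, had the same counts over 5 regions. Myzap, an adhesion protein of heart muscle, had 3 and 20 (3.25, 1.68 to 5.83), of which 2 and 11 were at its promoter. Nlrc5, which activates class I antigen presentation genes, had 3 and 17 (3.02, 1.41 to 5.61), and 3 of its 4 regions were promoter regions.

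Tnfrsf1a, the main receptor of tumour necrosis factor, had 6 and 28 reads (2.83, 1.62 to 4.48), but 3 and 19 of these lay in Plekhg6, with 1 and 14 in an intron at chr6:125369283-125369676. The 4 regions given to Ghsr (6 and 25 reads) all lie in Fndc3b, and 5 of the 8 given to Ldhal6b (7 and 29 reads) in Arid1b. Actbl2 and Naip6 each had 3 and 17 reads and no promoter region, and Naip6 has near-identical relatives that short reads may not tell apart. Ntpcr, like Bmp1, had 3 and 18 (3.10, 1.51 to 5.69). The largest of these 11 genes by reads had 36 and the smallest 20.

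**Figure D3:**
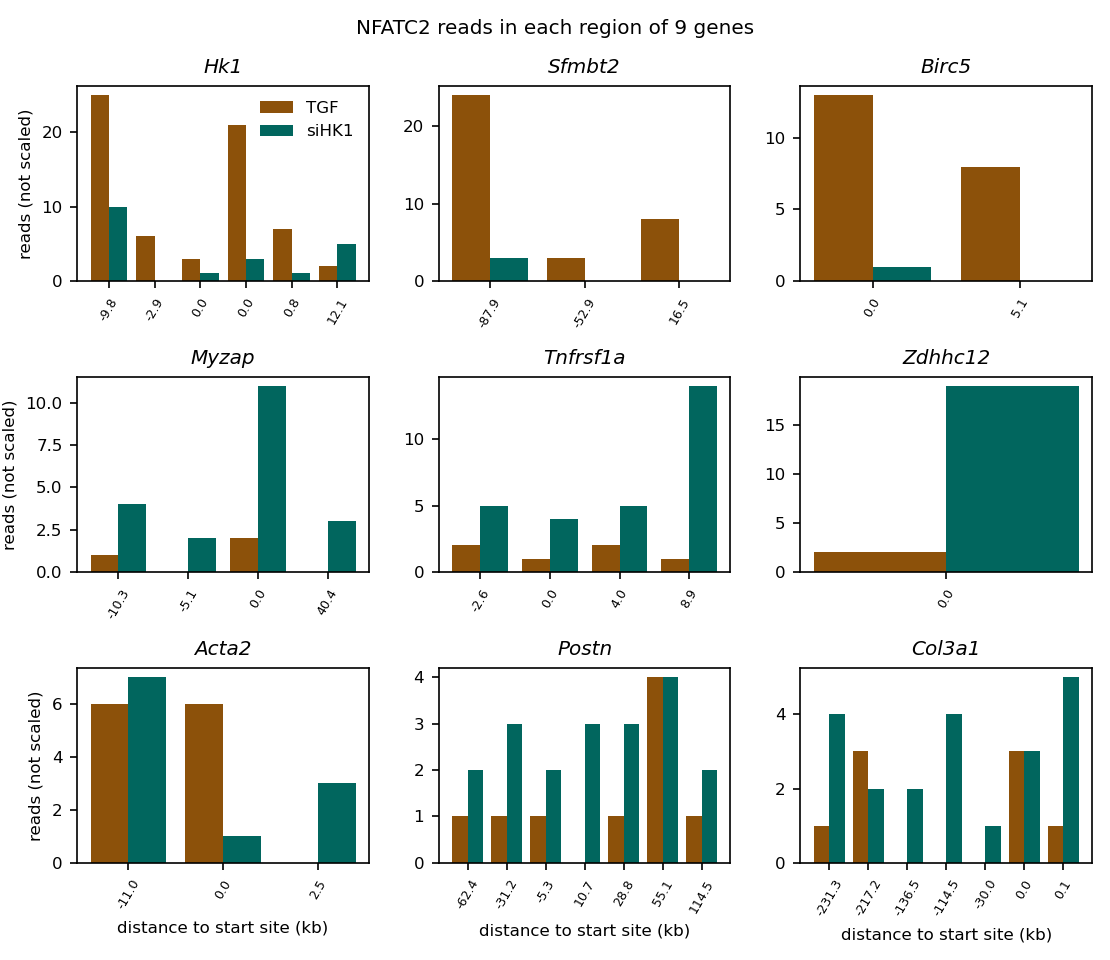
Raw NFATC2 reads in each region of 9 genes, brown bars for TGF and green bars for siHK1, with regions ordered by distance to the start site (kb). Counts are raw, so an equal share gives a brown bar 1.62 times as tall as the green one, and the region with most reads was in TGF at Hk1 (25) and Birc5 (13), and in siHK1 at Zdhhc12 (19) and Tnfrsf1a (14).

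Of the other genes the study speaks of at these loci, Axin2, a Wnt feedback inhibitor, had 375 reads in TGF and 183 in siHK1 (-0.33, -0.60 to -0.08). Of these, 373 and 180 lay in a single region at chr11:109011646-109012183, 68 kb from its start. Smyd3, a lysine methyltransferase, had 42 reads in each library (0.70, 0.05 to 1.35) over 16 regions. Cdk1, the kinase of mitosis, had 16 and 6 (-0.64, -2.36 to 0.71), with 14 and 2 at its promoter and 2 and 4 elsewhere. No NFATC2 region was assigned to Irf7.

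Promoters did not stand apart from other regions. Promoter regions held 14.6% of TGF reads and 14.8% of siHK1 reads, introns 22.0% and 23.0%, and regions far from genes 34.0% and 33.5%. Summed over promoter regions alone, 1481 genes passed the minimum with a median of 0.058, 102 of them 2-fold lower and 117 higher. For the 426 genes that passed on promoter regions and on other regions, both ratios had the same sign in 239 (56.1%), and their Spearman correlation across genes was 0.17. Ratios by peak call follow from the call itself. They were -1.25 where only TGF had a peak (28980 regions), 1.43 where only siHK1 had one (37305) and -0.08 where both had one (2482 regions).

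A small number of regions held much of the signal. The 69 regions with the most reads, 1009 or more each, made up 0.1% of regions and held 40.1% of TGF and 38.0% of siHK1 reads. In 57 of the 69 more than 50% of the bases were masked as repeats in the GRCm38 sequence. In 6 regions more than 50% of the 20-base words were also in the mitochondrial genome, and in 1 they were in Rn18s-rs5, an 18S ribosomal RNA sequence on chromosome 17, which left 5 of the 69 with none of these, 2 of them assigned to Rn45s, the ribosomal RNA precursor. Gene sums near them rest on such regions. Col19a1, a non-fibrillar collagen, had 60900 and 40784 reads (0.12, 0.10 to 0.14), and Fgf14 had 5074 and 3513 (0.17, 0.11 to 0.23).

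The NFAT core alone was not more frequent under NFATC2 regions than beside them. GGAAA, on either strand, was in the central 200 bases of 42.9% of regions and in 48.8% of windows of the same length 5 kb away. The longer TGGAAA was in 16.5% and 19.4%, and TGANTCA was in 6.66% and 5.74%. A joint form, a GGAAA core followed by TGANTCA at a single fixed spacing, was in 0.0378% of regions and 0.0218% of flanking windows. Other spacings were not searched, so these shares do not measure how often NFAT and AP-1 words lie side by side. In the JUN table, read the same way, TGANTCA was in 29.3% of regions and 6.08% of flanking windows. These are matches of letters, not sites. GGAAA was in 45.9% of regions with 1 to 9 reads, in 22.1% of those with 20 to 49 and in 33.5% of those with 200 or more, so it did not follow the reads in 1 direction. TGGAAA was in 17.9%, 6.25% and 22.3% of the same groups. The word ACACAC, chosen after the sequences were seen, was in 21.8%, 47.4% and 26.7%, and the share of repeat-masked bases was 27.4%, 45.0% and 56.1%. The ratio of pooled reads was 0.10 in regions with GGAAA and 0.02 in those without, the 69 regions left out.

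Regions with many NFATC2 reads were regions of the other tables too. Of the 56344 NFATC2 regions with 1 to 9 reads, 4.46% shared at least 1 bp with a SMAD3 region, against 75.9% of the 3104 with 20 to 49 reads and 97.6% of the 206 with 200 or more. In all, 12.3% of NFATC2 regions overlapped a SMAD3 region and 14.3% of SMAD3 regions an NFATC2 region. For JUN these shares were 16.7% and 15.4%, and for H3K9lc, lactylation of histone H3 at lysine 9, 7.24% and 6.58%.

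**Figure D4:**
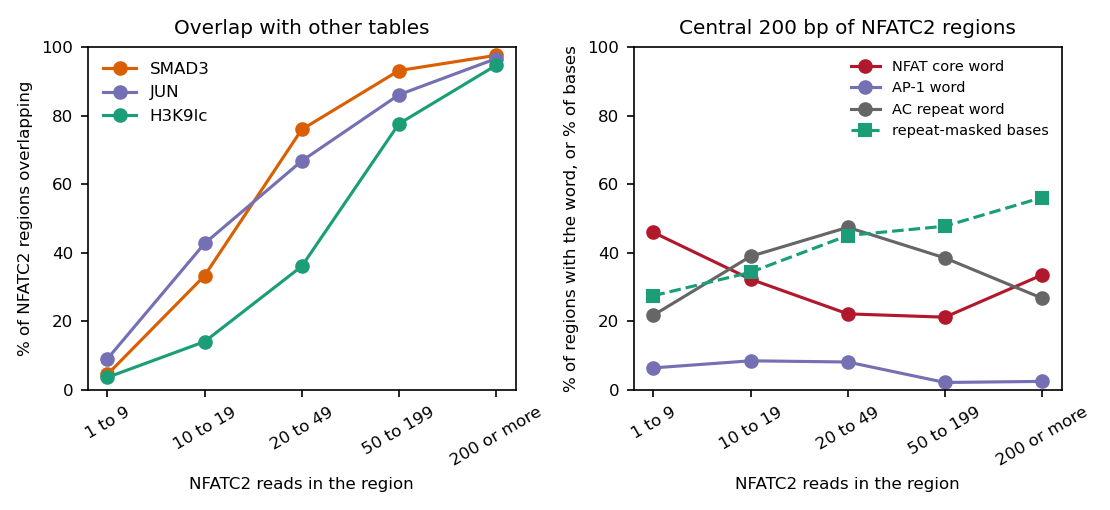
NFATC2 regions grouped by their reads in both libraries, with, on the left, the percent of regions that overlap a region of the SMAD3, JUN or H3K9lc table by 1 bp or more, and on the right the percent of regions whose central 200 bp hold the NFAT core word (GGAAA), the AP-1 word (TGANTCA) or the AC repeat word (ACACAC), and percent of repeat-masked bases. Overlap with SMAD3 goes from 4.46% to 97.6% while the NFAT core is at 45.9% in the group with fewest reads, 22.1% at 20 to 49 reads and 33.5% at 200 or more.

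Gene ratios of NFATC2 were set beside those of the other antibodies, each with its own pair of libraries. Across genes kept in both tables, the Spearman correlation of the log2 ratios was 0.21 with SMAD3 (5702 genes), -0.08 with JUN (6767) and 0.02 with H3K9lc (5002). Over genes with 100 or more reads it was 0.41 with SMAD3 (878 genes), -0.08 with JUN (851) and 0.11 with H3K9lc (831). The tables share gene assignment and many of their most-read regions, and genes are not independent replicates.

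Single genes differed between antibodies. Hk1, at -0.95 with NFATC2, had ratios near 0 with SMAD3 (0.09, -0.50 to 0.66) and H3K9lc (0.07, -0.44 to 0.57), and 0.25 with JUN (0.09 to 0.40). Col1a1 was 1.25 with SMAD3 (0.79 to 1.73) and -0.27 with JUN (-0.39 to -0.14). Col3a1 was 1.03 with SMAD3 (0.04 to 2.10), -0.05 with JUN and 0.06 with H3K9lc. Acta2 was -0.71 with JUN (-1.10 to -0.34), on 237 and 78 reads. Zdhhc12 and Bicra, tied for the highest ratio with NFATC2, were -1.43 (-2.80 to -0.39) and 0.20 (-0.08 to 0.46) with JUN.

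**Figure D5:**
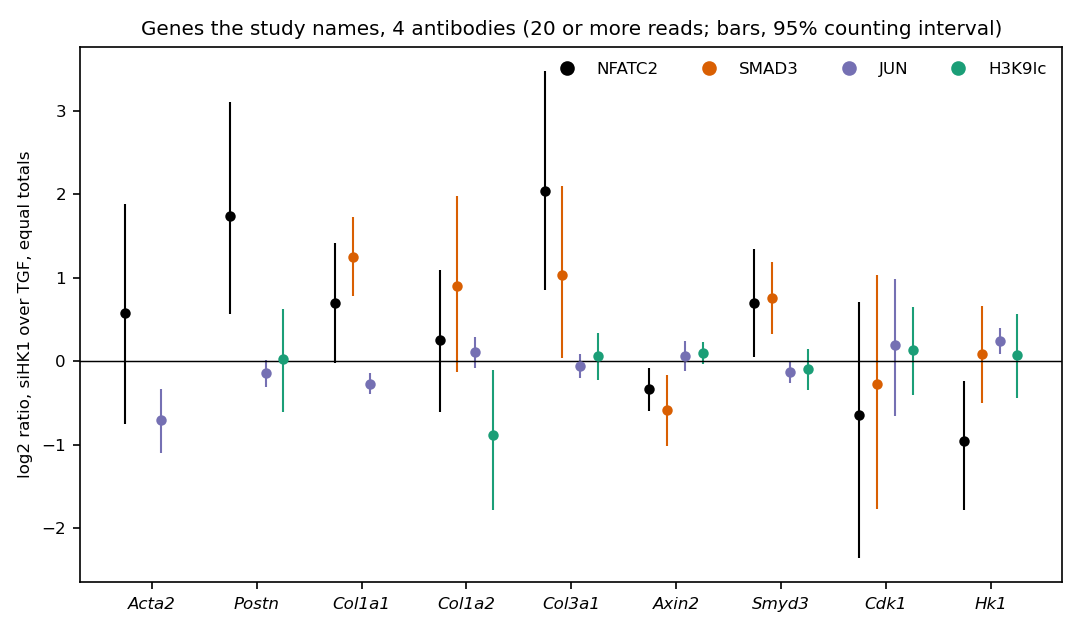
Log2 ratio (siHK1 over TGF, equal totals within each antibody) of 9 genes the study names, with 95% counting intervals as bars, for NFATC2, SMAD3, JUN and H3K9lc where the gene had 20 or more reads. Hk1 lies at -0.95 with NFATC2 and between 0.07 and 0.25 with the other 3, while Col1a1 lies at 0.70 with NFATC2, 1.25 with SMAD3 and -0.27 with JUN.

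CUT&Tag reads do not report which genes a cell expresses, so the cell type in the labels could not be checked by markers. At 7 of 9 fibroblast markers found in the table there were 220 reads in TGF and 206 in siHK1. At 7 of 8 cardiomyocyte markers there were 150 and 80, at 7 of 7 endothelial markers 173 and 101, and at 6 of 7 macrophage markers 52 and 72. Mural markers (6 of 6) had 62 and 34, T cell markers (3 of 5) 31 and 14 and Schwann markers (2 of 3) 7 and 3.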

How the data were processed

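Region tables were used as deposited. The authors deposited raw read counts per region and library with a 0 or 1 mark for a called peak. Columns of the authors' own comparison (means, M values, p-values) were not used. The submitters' processing notes name BWA 0.7.12 and mm10, whereas the study's methods name Bowtie2, MACS2 and GRCm39. In the NFATC2 table, 28805 of 29084 transcripts were found in GENCODE vM21 (GRCm38) and 100% of them had the same coordinates, so positions are on GRCm38, counted from 1.

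Counts were summed per symbol, kept at 20 or more reads over both libraries and scaled to equal totals over listed regions (pseudocount 0.5). A call is 2-fold. Peak calling per library decided which regions were listed, so sums move with what was called. Library depth is not given in the sources used here. With 1 library per condition no test was made. Reads at gene lists (24) are given as counts and medians. Gene lists and named genes were chosen with earlier results of these data known. Named genes come from those the study speaks of, the 10 furthest in each direction by the interval bound nearest 0 (ties kept; 5 unnamed or multigene-family symbols passed over), the gene of each list lowest and highest by its interval bound nearest 0, not by its ratio, and the most-read gene of each list, along with other list members chosen after their values were seen. TMM scaling came from edgeR 4.0.16. Sequences were read with samtools 1.23.1 and overlaps with bedtools 2.31.1. Python 3.11.15, pandas 2.3.3 and scipy 1.17.1 were used. The computation of gene ratios was checked on simulated counts with known ratios. The control library and the library of unstated antibody were not analysed here. One gene that the rule names and 1 promoter region are not reported here.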

Additional observations from a re-analysis of the deposited data

How the results depend on the processing

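No paired analysis was possible because there was 1 library per condition, and no replicate could be left out. Values were recomputed under 17 other settings. The median log2 ratio of all genes (0.079) was -0.62 with no scaling and -0.10 when each gene was read from its highest region. It was 0.16 with totals equal over regions called in both libraries, 0.018 with TMM, 0.21 with no minimum, 0.11 at 10 or more reads, 0.030 at 50 or more, 0.13 at 20 or more after scaling, 0.028 without the most read regions and 0.032 over regions called in both libraries. The counts lower and higher (487 and 651) were 2130 and 141 with no scaling, 2415 and 4323 with no minimum, 1187 and 1642 at 10 or more reads, 83 and 94 at 50 or more, 102 and 117 on promoter regions, 35 and 42 over regions called in both libraries, 305 and 138 for the highest region of each gene, and 125 and 169 at 3-fold. They were 567 and 582 (50.7% higher) with TMM and 403 and 798 (66.4% higher) with totals equal over regions called in both libraries, so the balance of higher over lower rests on the scaling. Of calls past 2-fold, 57.2% were higher, against 31.2% for the highest region of each gene and 6.21% with no scaling. Of 1196 gene values recomputed, 59 left the counting interval and 0 reversed a call, and 31 of 374 list medians shifted by more than 1 SD of the list's genes. Medians of the contractile list stayed on their side of the all-gene median in 15 of 16 settings, those of fibroblast transcription factors, matrix glycoproteins and iron genes in 16 of 16. For collagen cross-linking enzymes and for histone acylation enzymes it was 11 of 16. Settings that changed only the scaling move all ratios by the same amount, so no list could change sides under them. What caused each shift was not tested. Depth limits most single genes, as the median gene rests on 40 reads.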

Other observations

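Among genes with 100 or more NFATC2 reads, 16 passed 2-fold, all chosen after their values were seen. The 9 lower genes were Smgc (101 reads in TGF and 17 in siHK1), Ppa2 (109 and 24), Ano5 (146 and 33), Gm35496 (107 and 26), Vwc2 (100 and 26), 4933402C06Rik (91 and 24), Gm28453 (80 and 22), 1700028P15Rik (126 and 38) and Srrm4 (96 and 29). Srrm4, a splicing regulator of neurons, had a log2 ratio of -1.01 (-1.68 to -0.42), and Ano5, a membrane protein of muscle, had -1.43 (-2.04 to -0.89).

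The 7 higher genes were Zmiz1 (38 reads in TGF and 72 in siHK1), Piezo2 (63 and 90), Tbc1d1 (52 and 74), Nol4l (45 and 63), Gtf2ird1 (73 and 101), Slc41a2 (43 and 57) and Rxra (64 and 82). Zmiz1, a co-regulator of transcription, had the highest ratio of the 7, 1.61 (1.03 to 2.23), over 21 regions. Piezo2, a mechanically gated cation channel, had 1.21 (0.73 to 1.70), and Rxra, a nuclear receptor that pairs with many others, had 1.05 (0.57 to 1.55).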
